A study of Mus musculus with 34 samples.

Results

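The hearts of mice kept on a high-fat and high-calorie diet (HFCD) were set against those of mice on a control diet, gene by gene, by RNA sequencing. The comparison holds 4 HFCD libraries, replicates 1 to 4, and 5 control libraries, replicates 2 to 6. These are 9 of the 27 libraries with a column in the count tables, and 34 libraries carry labels. HFCD replicate 5 was left out: its Bmp10, which encodes a growth factor of atrial muscle, stood at 9.73 log2 CPM (the count scaled to library size), past the limit of 9 that defines the choice, while the highest of the 9 libraries kept, HFCD replicate 3, stood at -0.22. An atrial gene thus chose the libraries, and atrial genes are given below as a description, with no test.

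All mice were C57BL/6J. Fat supplied 60% of the calories in HFCD and 10% in the control diet, and food was freely available on both. Hearts were taken once the mice of another arm of the study, which is not compared here, had completed 11 cycles of a fasting mimicking diet and 4 days of refeeding. Control replicates 2 and 3 and HFCD replicate 1 were 21 months old, the 6 remaining mice 20 months and the left-out HFCD replicate 5 was 22 months. Neither the sex of the mice, the hour of collection nor the chamber of the heart is given in the labels. They do not tie libraries to animals either, so the p-values measure the spread between these libraries.

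Adult heart muscle burns mainly fatty acids. Fatty acids enter through carriers such as CD36, are bound to coenzyme A, cross into mitochondria on carnitine and are shortened there step by step, and the nuclear receptor PPAR alpha, which fatty acids activate, raises the genes for these steps. Heart cells also hold a circadian clock: the protein BMAL1, made by Arntl, pairs with CLOCK or NPAS2, binds E-box sequences and switches on Per, Cry, Ciart and Nr1d genes, whose products then hold it down. Dbp and Tef encode clock output factors that bind D-boxes, and the NR1D receptors repress Arntl through sites built on a nuclear receptor core sequence. Chaperones of the cytosol and of the endoplasmic reticulum fold new or damaged proteins and are induced by stress.

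Stretches that carry these motifs are shown for 3 clock genes that passed at least 1 of the fits described below, read 5′ to 3′ on the gene's own strand from 250 bases before to 50 bases after the start site in RefSeq, build GRCm38.p6. Capitals mark D-boxes (TTATGTAA), E-boxes (CACGTG) or the core site of nuclear receptors (AGGTCA), searched on both strands.
Per3, chr4:151044616-151044915, minus strand: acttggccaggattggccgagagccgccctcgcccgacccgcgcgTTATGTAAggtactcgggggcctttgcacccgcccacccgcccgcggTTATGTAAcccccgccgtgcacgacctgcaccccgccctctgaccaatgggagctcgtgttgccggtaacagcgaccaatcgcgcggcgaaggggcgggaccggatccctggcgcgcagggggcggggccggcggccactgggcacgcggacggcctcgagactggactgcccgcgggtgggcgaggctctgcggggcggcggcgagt
Ciart, chr3:95882179-95882478, minus strand: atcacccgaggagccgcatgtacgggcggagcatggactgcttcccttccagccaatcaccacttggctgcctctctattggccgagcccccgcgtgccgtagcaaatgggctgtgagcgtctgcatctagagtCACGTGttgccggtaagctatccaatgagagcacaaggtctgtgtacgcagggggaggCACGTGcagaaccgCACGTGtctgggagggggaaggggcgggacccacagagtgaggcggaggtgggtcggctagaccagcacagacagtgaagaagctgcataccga
Arntl, chr7:113207261-113207560, plus strand, the later of 2 start sites: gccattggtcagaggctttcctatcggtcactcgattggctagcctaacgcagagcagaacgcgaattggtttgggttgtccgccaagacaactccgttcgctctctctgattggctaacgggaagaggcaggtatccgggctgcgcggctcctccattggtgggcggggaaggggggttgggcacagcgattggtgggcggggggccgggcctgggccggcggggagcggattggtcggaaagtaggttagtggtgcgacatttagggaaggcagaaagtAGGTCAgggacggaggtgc
The Per3 window held 2 D-boxes, whose first bases lie at -205 and -158 from the start site, and the Ciart window held 3 E-boxes, at -116, -58 and -44. The Arntl window held 1 receptor core site, at 31. These 3 windows are shown because they hold matches and their genes passed a fit, out of 12 windows searched for 9 clock genes. Matches were also held by windows of genes that passed none of the fits. The earlier Per1 start site had an E-box and a receptor core site, Nr1d2 a receptor core site, and both Tef windows an E-box. Per2 was sought too but had no window. The window of Npas2, which also passed a fit, and that of the earlier Arntl start site held none of the motifs. Nor did those of Nr1d1, Dbp and the later Per1 start site. Of 32851 windows of 300 bases in the same table, 7.15% held an E-box, 0.938% a D-box and 16.3% a receptor core site. These matches describe letters and say nothing of binding in these hearts.

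Library totals ran from 16848195 to 33180337 counts in the controls and from 23707218 to 29897306 on HFCD. The 4 defining ventricular genes of the marker list were abundant in every library, and Myh6, the main myosin heavy chain of the mouse ventricle, was at 14170.1, 12908, 15931, 14262 and 16929 CPM in the controls and at 12406, 12940.4, 12869.9 and 11257 CPM on HFCD (all values are CPM after TMM scaling, in the order of the replicate numbers). Mitochondrially encoded genes took 32.6, 25.1, 21.8, 27.6 and 28.98% of all counts in the controls and 36.4, 42.7, 71.5 and 37.8% on HFCD. The groups did not overlap, with means of 27.2 ± 4.06% (SD, n = 5) and 47.1 ± 16.5% (SD, n = 4; exact two-sided permutation p = 0.00794, the smallest that 4 against 5 libraries allow). The HFCD mean was 38.95 ± 3.34% without replicate 3 (n = 3; exact permutation p = 0.0179).

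The authors' own heart log2 table had a shift taken out that split the libraries into sets: HFCD 1 to 4 lay in one set with controls 2, 3 and 5, and controls 4 and 6 lay in another. The left-out HFCD 5 lay in a further set that held none of the 9 libraries compared. What the sets stand for is not given in the sources used here. The set was kept in the model, so each fold change below contrasts the 4 HFCD libraries with controls 2, 3 and 5, while controls 4 and 6 help to estimate the spread. With HFCD 5 included, the mean mitochondrial share on HFCD was 49.6 ± 15.4% (n = 5; exact permutation p = 0.00794). Within the set of 7 libraries the share gave an exact permutation p of 0.0857, where 0.0286 is the smallest possible.

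A pair of the 9 libraries stood apart from the rest. HFCD replicate 3 had the mitochondrial share of 71.5%, and the summed level of the atrial muscle list was 1365 CPM there against 251 to 397 CPM in the other 8. Myl7 and Myl4, the atrial myosin light chains, were at 135 and 193 CPM in it, with Nppa, the atrial natriuretic peptide, at 314 CPM. Its Bmp10 was nonetheless at 0.793 CPM, against 850.4 CPM in the left-out HFCD replicate 5. Controls 5 and 6 also held some atrial signal, with Myl7 at 21.6 and 9.38 CPM and Myl4 at 22.3 and 13.8 CPM. In the fit of the 9 libraries, TMM scaling gave HFCD 3 a factor of 0.475, against 0.924 to 1.25 in the other 8. The CPM values shown were scaled over all 14 hearts instead. On that scale the genes tested sum to 1.93e+06 CPM in HFCD 3 and to between 733379 and 880020 CPM in the controls. The scaled mitochondrial values of HFCD 3 thus exceed their share of its counts. Across genes, control replicate 2 correlated with the other controls at a mean r of 0.956, against 0.974 to 0.979 for the other 4, and HFCD 3 with the other HFCD libraries at 0.951, against 0.974 to 0.977. When limma estimated how noisy each library was, HFCD 3 and control 2 received weights of 0.228 and 0.156, and the other 7 received 1.10 to 2.59. HFCD replicate 5 also differed in its Xist, which is transcribed from the inactive X chromosome and was at 0.532 CPM against 58.6 to 186 CPM in the 9 libraries compared.

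**Figure D1:**
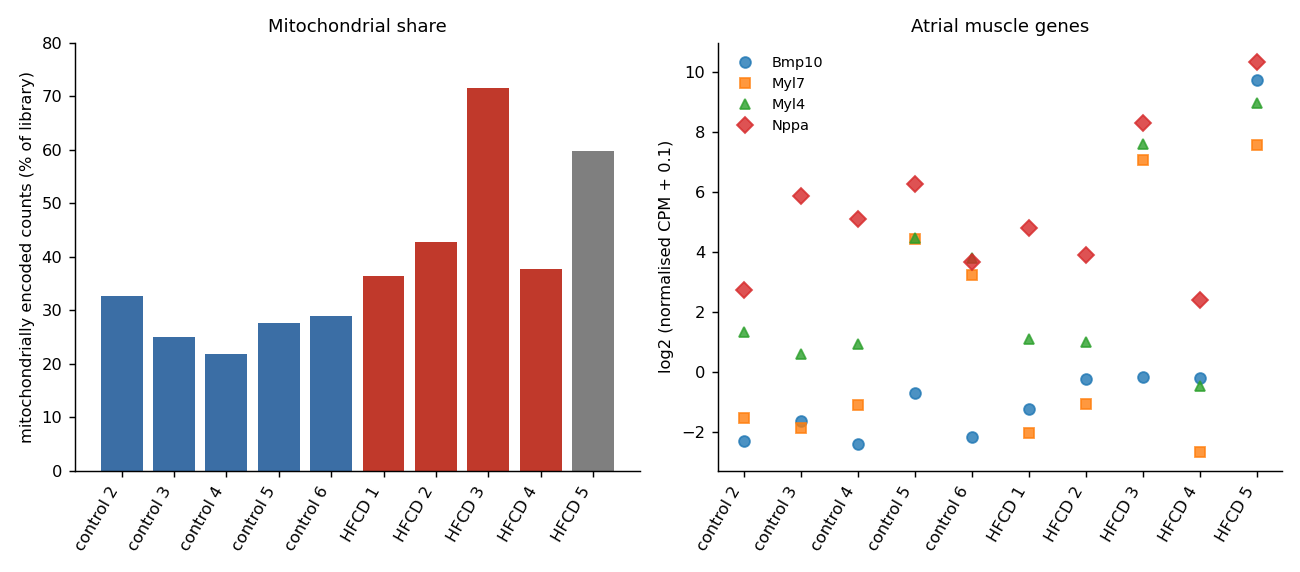
Left, share of counts from mitochondrially encoded genes in each heart library; the controls (blue) end at 32.6% and the HFCD libraries (red) begin at 36.4%, with HFCD 3 at 71.5% and the left-out HFCD 5 in grey. Right, log2 of normalised CPM plus 0.1 for 4 atrial genes in the same libraries; Bmp10 is high in HFCD 5 only, whereas Myl7, Myl4 and Nppa are also high in HFCD 3.

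No gene passed a false discovery rate of 0.05 when all 9 libraries were weighted equally (0% of 13079 genes higher and 0% lower on HFCD, edgeR). The smallest adjusted p was 0.324, shared by the 10 genes of smallest p. At an unadjusted p below 0.05, 896 genes (6.85%) were higher and 1085 (8.30%) lower on HFCD, and in 680 genes (5.20%) every HFCD library lay above every control while in 727 (5.56%) every one lay below. About 654 genes are expected at an unadjusted p below 0.05 by chance alone. With age added to the edgeR model, 639 genes reached that level and 0 passed. The list counts below at that level come from the fit without age. With the estimated library weights, limma voom called 109 genes higher (0.833%) and 53 lower (0.405%). DESeq2 called 30 higher (0.229%) and 19 lower (0.145%), of which 41 were among the 162 of the weighted fit. Leaving out HFCD 3 and control 2, a choice made after their values were seen, gave 26 higher (0.199%) and 4 lower (0.0306%) in edgeR, and the weighted fit held 29 of these 30. The weighted fit counts those 2 libraries least and shares the other libraries, so this overlap is no independent support. All 162 genes of the weighted fit had the same direction with equal weights, from the same counts. In only 72 of them did the 4 HFCD libraries lie wholly beyond the 5 controls.

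Fold changes below come from the equal-weight fit in edgeR, which passed no gene, unless another is named. A further 3 fits are quoted beside it: the weighted fit (limma voom), DESeq2, and edgeR with both libraries left out. The last rests on 3 HFCD libraries against controls 3 and 5 within the set. Without the set term it called 29 genes, of which 15 were shared with the 30. Of the 20 genes named below that passed with both libraries left out, 9 also passed without the set term: Sdc4, Sdf2l1, Pex11a, Hsd17b11, Irs1, Cyp26b1, Mki67, Scn4b and Chrna2.

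More genes of fatty acid oxidation were higher than lower on HFCD. Of 26 such genes, 8 were higher at an unadjusted p below 0.05 (30.8%, against 6.85% of all genes) and 1 was lower, and their median log2 fold change was 0.30 against 0.00 over all genes. The weighted fit passed 7 of the 26 (Acot2, Acsl1, Cpt2, Crat, Decr1, Etfdh and Slc25a20), all higher. Among 28 PPAR target genes, 7 were higher and 1 lower at that level, with a median of 0.32, and 6 passed the weighted fit, all higher. Few were clear of the controls in every library: the HFCD libraries lay wholly above the controls in 2 of the 26 oxidation genes and in 1 of the 28 PPAR targets (5.20% of all genes did), and wholly below in 1 oxidation gene. The 24 genes of fatty acid uptake and the lipid droplet had 3 higher and 1 lower at an unadjusted p below 0.05 and a median of -0.10, which was 0.05 without HFCD 3 and 0.20 without control 2. With HFCD 3 and control 2 left out the medians were 0.43 for oxidation, 0.46 for PPAR targets and 0.27 for uptake. Bulk tissue cannot tell fewer cells of a type from less RNA per cell, here or below.

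Uptake and activation come first. Cd36, which encodes the main fatty acid carrier of heart, was at 1191, 1401, 1576, 1367 and 1918 CPM in the controls and at 1809, 2116, 1944 and 2000.5 CPM on HFCD, so that 3 of the 4 HFCD libraries exceeded every control. Its log2 fold change was 0.58 ± 0.16 (SE), with adjusted p = 0.0353 in the weighted fit and 0.0128 in DESeq2. Acsl1, the acyl-CoA synthetase that activates long-chain fatty acids, was at 656, 803, 898, 794 and 1025 CPM in the controls and at 1019, 1196, 1034 and 1123 CPM on HFCD, and only control 6 reached the range of the HFCD group. It was higher by 0.54 ± 0.16 on the log2 scale (adjusted p = 0.0370 in the weighted fit and 0.0344 in DESeq2). Fabp4, a fatty acid binding protein of endothelial and fat cells, was at 804, 293, 408, 309 and 323 CPM in the controls and at 488, 538, 624 and 473 CPM on HFCD. Control 2 alone lay above the HFCD range there, and the log2 fold change was 0.18 with it and 0.82 without it (edgeR adjusted p = 0.421). Fabp4 passed the weighted fit at 0.69 (adjusted p = 0.0488) and the fit without both libraries at 0.73 (adjusted p = 0.0452), but not then without the set term (0.59, adjusted p = 0.0611).

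Entry into mitochondria runs through the carnitine carriers. The values of Cpt1a, the carnitine palmitoyltransferase shared with liver, were 33.6, 41.8, 35.9, 40.2 and 55.2 CPM in the controls and 53.3, 57.9, 48.95 and 56.3 CPM on HFCD. Those of Cpt1b, its muscle form, were 7.07, 11.6, 12.5, 11.4 and 12.9 CPM and 15.9, 14.99, 11.8 and 16.6 CPM. Both were higher in most HFCD libraries, by 0.49 ± 0.17 and 0.56 ± 0.20 on the log2 scale, and neither passed in any of the named fits (weighted adjusted p = 0.0790 and 0.0543). Crat, carnitine acetyltransferase, was at 542, 403, 478, 426 and 440.4 CPM in the controls and at 554, 608, 562 and 639 CPM on HFCD, with no overlap between the groups. Its log2 fold change was 0.37 ± 0.16, and the weighted fit gave 0.50 (adjusted p = 0.0335). Cpt2 and the carnitine-acylcarnitine carrier Slc25a20 passed the weighted fit at 0.58 and 0.54 (adjusted p = 0.0446 and 0.0425), where HFCD 3, at 133 and 112 CPM, was the lowest HFCD library for both.

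A further 3 genes passed the weighted fit as higher. Decr1, which acts on unsaturated fatty acids, was at 373, 241, 362, 254 and 323 CPM in the controls and at 356, 377, 379 and 408 CPM on HFCD. Etfdh, which passes electrons from fatty acid oxidation to ubiquinone, was at 372, 440.3, 513, 436 and 571 CPM in the controls and at 570.2, 628, 584 and 676 CPM on HFCD. Hsdl2, a peroxisomal and mitochondrial protein related to hydroxysteroid dehydrogenases, was at 162, 201, 252, 226 and 263 CPM in the controls and at 329.9, 350.2, 326 and 354 CPM on HFCD. The 4 HFCD libraries exceeded all controls for Hsdl2, whereas controls 2 and 4 lay in the HFCD range for Decr1 and control 6 touched it for Etfdh. Hsdl2 was among the 10 genes of smallest p (0.000389), with a log2 fold change of 0.79 ± 0.16, and passed the weighted fit, DESeq2 and the fit without both libraries (adjusted p = 0.0113, 0.000430 and 0.0300), the last not without the set term (0.0570). Decr1 passed the weighted fit (adjusted p = 0.0266) and, at 0.62, the fit without both libraries (0.0452), but not then without the set term (0.37, 0.181). Etfdh passed the weighted fit and DESeq2 (adjusted p = 0.0298 and 0.0116).

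Cat, Pex11a and Hsd17b11 are named for their values and form no list. Cat, the catalase that breaks down peroxisomal hydrogen peroxide, was at 201, 204, 186, 209 and 222 CPM in the controls and at 308, 364, 616 and 309 CPM on HFCD, so that the lowest HFCD value was well above the highest control. Its log2 fold change was 0.96 ± 0.25 and 0.68 without HFCD 3, and it passed the weighted fit and DESeq2 (adjusted p = 0.0298 and 0.0400). Pex11a, a peroxisome division protein and PPAR target, was at 21.3, 15.3, 16.7, 14.4 and 16.8 CPM in the controls and at 22.7, 21.9, 18.5 and 24.1 CPM on HFCD. It passed at 0.61 in the weighted fit and at 0.62 without both libraries (adjusted p = 0.0188 and 0.0452). Hsd17b11, a lipid droplet dehydrogenase, was at 38.2, 20.2, 24.9, 25.3 and 23.9 CPM in the controls and at 41.3, 44.7, 38.2 and 37.9 CPM on HFCD, where again only control 2 entered the HFCD range. It passed the weighted fit and the fit without both libraries (adjusted p = 0.0166 and 0.0300).

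The acyl-CoA thioesterases varied widely between libraries. Acot2, the mitochondrial thioesterase, was at 65.7, 31.3, 47.6, 36.1 and 50.3 CPM in the controls and at 69.6, 71.7, 81.96 and 72.9 CPM on HFCD. All HFCD libraries exceeded all controls, by 0.74 ± 0.23 on the log2 scale, and by 1.08 without both libraries (adjusted p = 0.00239, or 0.0602 without the set term). Its adjusted p in the weighted fit was 0.00274, and that of Acot1 0.0126. The cytosolic relative Acot1 was at 13.3, 3.03, 7.27, 2.59 and 9.72 CPM in the controls and at 8.99, 13.3, 3.49 and 12.3 CPM on HFCD, with wide overlap. The fit without both libraries gave 2.03 (adjusted p = 0.00525), which rests on the low values of controls 3 and 5, and 1.08 without the set term (adjusted p = 0.305). Acot1 and Acot2 are near-identical in sequence, so reads may have been divided between them.

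Other lipid genes of the panel did not pass. Pdk4, the kinase that shuts off pyruvate oxidation, was at 530.1, 219, 686, 461 and 1095 CPM in the controls and at 511, 1636, 453 and 791 CPM on HFCD, and the groups overlapped over most of their range. Ucp3, a mitochondrial carrier of muscle, was at 64.2, 29.2, 49.7, 43.6 and 78.4 CPM in the controls and at 63.3, 99.03, 40.2 and 71.1 CPM on HFCD. Angptl4, a secreted inhibitor of lipoprotein lipase, was at 18.2, 3.62, 10.7, 8.62 and 12.2 CPM in the controls and at 10.3, 15.7, 6.11 and 9.57 CPM on HFCD. None of these 3 passed in any of the named fits, and control 3 held the lowest control value of each. Their log2 fold changes were 1.07 ± 0.46, 0.58 ± 0.33 and 0.05 ± 0.45. Plin2, which coats lipid droplets, lay at 36.2 to 44.6 CPM in the controls and at 39.7 to 48.8 CPM on HFCD (0.18 ± 0.14). In the left-out HFCD 5, Plin2 was at 172 and Acot2 at 197 CPM, each above all 9 libraries.

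**Figure D2:**
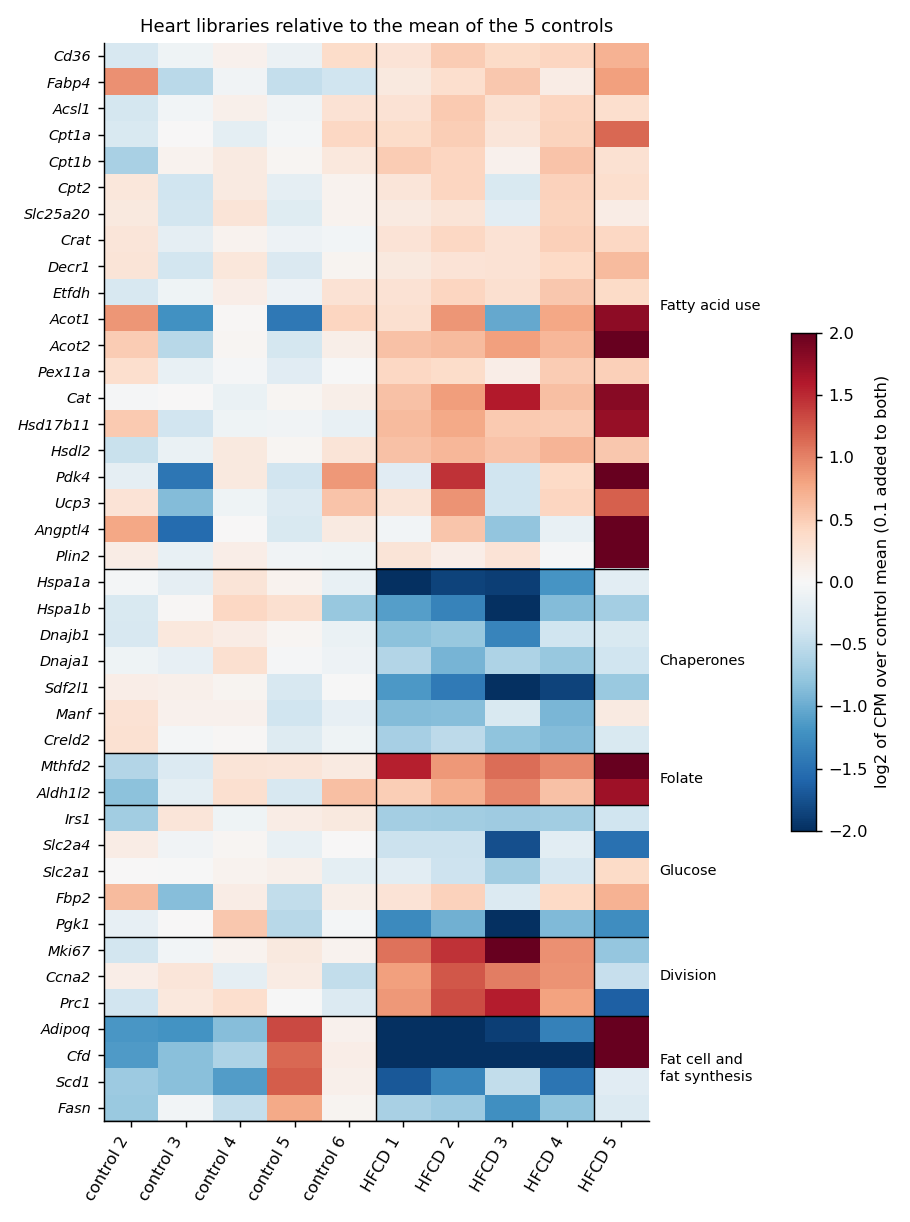
Each cell is the log2 of a library's normalised CPM over the mean of the 5 controls (0.1 added to both; colour limited to between -2 and 2). Rows are genes grouped by role and columns are libraries; the fatty acid genes are mostly red in HFCD 1 to 4, the chaperones blue, and the left-out HFCD 5 departs from the other HFCD libraries for the division and fat cell genes.

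The clock genes differed between the diets in opposite directions. Of 20 clock genes, 9 were higher and 2 lower at an unadjusted p below 0.05 (6.85% and 8.30% over all genes), with a median log2 fold change of 0.33, or 0.29 without HFCD 3 and control 2. The weighted fit passed Per3 and Ciart as higher and Arntl and Npas2 as lower. No hour of collection is given, so diet and time of day cannot be told apart for these genes.

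Among the activators, Arntl (ENSMUSG00000055116, chr7:113207465-113314126 in mm10) was at 5.88, 9.35, 4.23, 8.89 and 6.39 CPM in the controls and at 3.104, 3.07, 2.22 and 3.62 CPM on HFCD. Every HFCD library lay below every control, with a log2 fold change of -1.40 ± 0.24 (edgeR adjusted p = 0.324). It passed the weighted fit at -1.46 (adjusted p = 0.00192), DESeq2 (adjusted p = 0.000497) and the fit without both libraries at -1.48 (adjusted p = 0.0118), but not the latter without the set term (-1.15, adjusted p = 0.0862). Npas2, which can stand in for CLOCK, was at 2.08, 3.01, 1.36, 3.8005 and 1.77 CPM in the controls and at 1.95, 1.495, 1.98 and 1.17 CPM on HFCD. The groups overlapped, controls 3 and 5 were highest, and the weighted fit gave -1.18 (adjusted p = 0.0272). Clock itself had a log2 fold change of 0.31 ± 0.25 and did not pass.

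The Per genes encode repressors of that pair. Per3 (ENSMUSG00000028957, chr4:151003652-151044665) was at 8.48, 11.8, 10.8, 12.9 and 11.3 CPM in the controls and at 22.6, 17.5, 20.8 and 20.9 CPM on HFCD. Every HFCD library was above every control, by 0.88 ± 0.17 on the log2 scale (adjusted p = 0.0242 in the weighted fit, 0.00304 in DESeq2 and 0.0685 without both libraries). Per2 was at 11.9, 14.5, 15.5, 15.5 and 18.003 CPM in the controls and at 18.2, 29.01, 23.96 and 23.4 CPM on HFCD, and Per1 was at 44.6, 39.7, 45.99, 55.4 and 53.2 CPM in the controls and at 57.8, 83.9, 86.7 and 64.4 CPM on HFCD. Neither gene's groups overlapped, and both lay higher on HFCD, by 0.75 ± 0.18 and 0.65 ± 0.19. Of the 2, Per2 passed DESeq2 (adjusted p = 0.0422) and Per1 passed none of the named fits.

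Ciart, another repressor of the CLOCK pair, was at 5.31, 3.05, 5.77, 3.56 and 5.17 CPM in the controls and at 6.497, 8.19, 5.63 and 7.87 CPM on HFCD, with 1 HFCD library inside the control range. Its log2 fold change was 0.84 ± 0.23, with adjusted p = 0.00853 in the weighted fit and 0.0282 without both libraries, but 0.0993 in the latter without the set term. Nr1d1, a receptor that represses Arntl, was at 146, 118, 92.2, 102 and 107 CPM in the controls and at 132, 95.8, 246 and 107 CPM on HFCD, and its log2 fold change went from 0.25 to -0.13 without HFCD 3. Nr1d2, its relative, was at 67.04 to 114 CPM in the controls and 107 to 147 CPM on HFCD (0.49 ± 0.18). Of the output factors, Dbp had a log2 fold change of 0.07 ± 0.23 and Tef one of 0.49 ± 0.22, and neither passed.

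The left-out HFCD 5 stood on the far side of the controls for several clock genes. Its library set held none of the 9 libraries compared, so a set difference and a difference of that heart cannot be told apart. Its Per1, Nr1d1 and Nr1d2, at 48.8, 138 and 72.2 CPM, lay within the control range. Its Arntl was at 17.2 CPM and its Npas2 at 6.75 CPM, above all 9 libraries. Per3 was at 4.49, Ciart at 1.46 and Dbp at 22.4 CPM, below all 9. With that library included and no set term, the log2 fold change was -0.27 for Arntl (edgeR adjusted p = 0.775) and 0.63 for Per3 (adjusted p = 0.286).

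**Figure D3:**
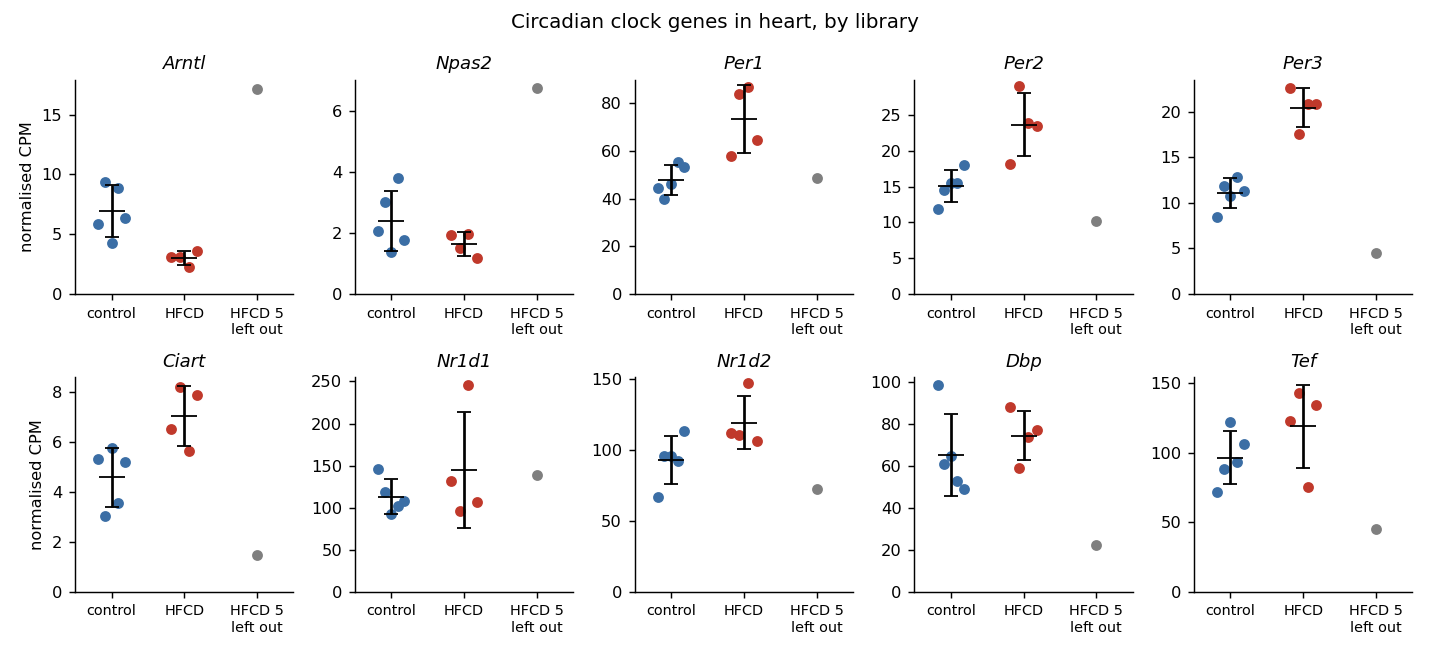
Normalised CPM of 10 clock genes, one point per heart library, in 5 controls, 4 HFCD libraries and the left-out HFCD 5; bars show the mean and SD of each group. Arntl lies lower and Per1, Per2 and Per3 lie higher in all 4 HFCD libraries than in the controls, and HFCD 5 departs in the opposite direction for Arntl, Npas2, Per3, Ciart and Dbp.

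A part of the chaperone genes was lower on HFCD. Of 21 heat shock genes, 6 were lower (28.6%, against 8.30% of all genes) and 0 higher at an unadjusted p below 0.05. In 7 the HFCD libraries lay wholly below the controls (5.56% of all genes did). The weighted fit passed 4 of them, all lower: Hspa1a, Hspa1b, Dnaja1 and Dnajb1. Of 20 genes of folding in the endoplasmic reticulum, 7 were lower (35%) and 0 higher at an unadjusted p below 0.05, and Manf and Sdf2l1 passed the weighted fit as lower. The list medians were -0.16 and -0.12, against 0.00 over all genes. Without control 2 the heat shock median was -0.09, and without HFCD 3 the folding median was -0.25. Positive log2 fold changes were held by 6 genes of each list, and without both libraries 0 heat shock genes and 1 folding gene passed.

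Hspa1a (ENSMUSG00000091971, chr17:34969190-34972156), an inducible HSP70 chaperone, was at 1.97, 1.77, 2.45, 2.12 and 1.81 CPM in the controls and at 0.433, 0.486, 0.476 and 0.837 CPM on HFCD. Each HFCD library held less than every control, a log2 fold change of -1.77 ± 0.29 (adjusted p = 0.0126 in the weighted fit and 0.00100 in DESeq2). Hspa1b, its near-identical neighbour that may share reads with it, was at 1.02, 1.304, 1.73, 1.63 and 0.715 CPM in the controls and at 0.541, 0.449, 0.238 and 0.658 CPM on HFCD (-1.40 ± 0.39; weighted adjusted p = 0.0364). The groups did not overlap for it either, and both genes are low in these libraries. Dnajb1 and Dnaja1 encode HSP40 partners of HSP70. Dnajb1 was at 12.7, 18.4, 17.8, 16.4 and 14.6 CPM in the controls and at 8.99, 9.38, 6.35 and 12.1 CPM on HFCD, and Dnaja1 was at 17.1, 16.02, 22.6, 17.7 and 16.9 CPM in the controls and at 12.1, 9.42, 11.7 and 10.6 CPM on HFCD. Both were lower in all 4 HFCD libraries than in any control, by -0.77 ± 0.22 and -0.63 ± 0.16 (weighted adjusted p = 0.0289 and 0.0289).

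In the endoplasmic reticulum, Sdf2l1, a component of the chaperone complex there, was at 6.09, 5.97, 5.77, 4.43 and 5.51 CPM in the controls and at 2.45, 2.02, 0.555 and 1.47 CPM on HFCD. The highest HFCD value was below the lowest control, with a log2 fold change of -1.70 ± 0.33 (adjusted p = 0.0188 in the weighted fit, 0.00100 in DESeq2 and 0.0452 without both libraries). Creld2, another stress-inducible protein of the reticulum, was at 15.03, 11.8, 12.4, 10.2 and 11.5 CPM in the controls and at 7.65, 8.45, 6.903 and 6.64 CPM on HFCD, again without overlap (-0.73 ± 0.17). Manf, a secreted stress-inducible protein, was at 41.3, 36.2, 36.2, 25.7 and 30.2 CPM in the controls and at 18.6, 18.8, 27.5 and 17.9 CPM on HFCD, and HFCD 3 alone reached the control range (weighted adjusted p = 0.0488). Hspa5, the master chaperone of the reticulum, was at 468, 541, 538, 374 and 573 CPM in the controls and at 354, 377, 326 and 351 CPM on HFCD (-0.39 ± 0.16; weighted adjusted p = 0.329), and the groups overlapped only at control 5.

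A pair of mitochondrial folate enzymes was higher on HFCD. Mthfd2 (ENSMUSG00000005667, chr6:83305691-83325908), which oxidises folate-bound units taken from serine, was at 1.44, 1.83, 2.68, 2.65 and 2.52 CPM in the controls and at 6.75, 4.15, 4.92 and 4.43 CPM on HFCD. Every HFCD library exceeded every control, by 1.35 ± 0.26 on the log2 scale (adjusted p = 0.0364 in the weighted fit and 0.00222 in DESeq2, but 0.112 without both libraries). Aldh1l2, which oxidises formyl-tetrahydrofolate in mitochondria, was at 4.01, 6.19, 8.91, 5.66 and 10.9 CPM in the controls and at 10.1, 11.8, 14.2 and 10.7 CPM on HFCD. Only the edges of the groups touched, at a log2 fold change of 1.13 ± 0.20 (adjusted p = 0.00853, 0.000546 and 0.0452 in the same fits). The value without both libraries was 0.87, and 0.48 without the set term as well (adjusted p = 0.252). Of 20 genes of the mitochondrial and integrated stress response, 2 were higher (10%) and 1 lower (5%) at an unadjusted p below 0.05. All genes gave 6.85% and 8.30%, and the list median was -0.11.

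Some genes of insulin action and glucose use were lower, while the median of the insulin signalling list was above 0. Irs1, the insulin receptor substrate, was at 25.9, 49.8, 39.6, 46.7 and 48.1 CPM in the controls and at 26.2, 26.02, 25.7 and 25.99 CPM on HFCD. The 4 HFCD values nearly coincided, and control 2 alone lay with them. The log2 fold change was -0.65 ± 0.21, or -0.89 without control 2, and it passed the weighted fit (adjusted p = 0.00853) and the fit without both libraries (-0.89, adjusted p = 0.0112), also without the set term (adjusted p = 0.0124). Slc2a4, the insulin-regulated glucose transporter GLUT4, was at 389.7, 336, 361, 319 and 352 CPM in the controls and at 262, 260.4, 104 and 304 CPM on HFCD. No HFCD library reached a control, but HFCD 3 was far below the rest: the log2 fold change was -0.58 ± 0.30 with it and -0.34 without it, and no named fit passed it. Slc2a1, the basal transporter GLUT1, was at 16.2, 15.9, 16.9, 17.3 and 13.97 CPM in the controls and at 13.9, 12.04, 9.84 and 12.7 CPM on HFCD, with no overlap and no pass (-0.44 ± 0.16).

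The 29 genes of glucose uptake and glycolysis had 1 higher (3.45%) and 6 lower (20.7%) at an unadjusted p below 0.05, against 6.85% and 8.30% of all genes. Their median was -0.18, and 0 passed the weighted fit. Pgk1, which makes the first ATP of glycolysis, was at 7.003, 7.89, 11.5, 5.35 and 7.698 CPM in the controls and at 3.21, 4.00001, 1.75 and 4.25 CPM on HFCD and its groups did not overlap (-1.001 ± 0.28). Fbp2, the muscle form of fructose bisphosphatase, ran the other way in the weighted fit (adjusted p = 0.0188) and without both libraries (1.04, adjusted p = 0.0112), yet its levels were at 32.2, 11.5, 22.995, 14.7 and 22.6 CPM in the controls and at 25.1, 28.6, 17.1 and 27.4 CPM on HFCD, with full overlap. Without the set term that fit gave 0.61 (adjusted p = 0.19998). Insulin signalling as a list of 29 genes had 2 higher (6.90%) and 4 lower (13.8%), against 6.85% and 8.30% of all genes. Of the 29, 18 had positive log2 fold changes, with a median of 0.15.

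Respiratory chain genes split by genome. All 9 mitochondrially encoded genes tested, of 15 listed, had positive log2 fold changes, with a median of 1.24, and 5 of them were higher at an unadjusted p below 0.05. Of 75 nuclear genes of oxidative phosphorylation, 39 were lower and 0 higher at that level (52%, against 8.30% of all genes), with a median of -0.62. The 45 cytosolic ribosomal protein genes had 24 lower and 0 higher with a median of -0.64, and the 63 mitochondrial ribosomal protein genes 17 lower and 0 higher with a median of -0.39. The medians differed with the libraries that stood apart. Without control 2 the 3 nuclear medians were -0.22, -0.30 and -0.11, and without HFCD 3 they were -0.55, -0.50 and -0.34. The mitochondrially encoded median was 1.60 without control 2 and 0.51 without HFCD 3. Without both the nuclear medians were -0.13, -0.16 and -0.04, and the mitochondrially encoded median was 0.75.

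Gene length moved with the same difference. Genes with up to 1000 bases of exon had a median log2 fold change of -0.48 and those with over 8000 bases one of 0.30, in steady order between them. Without control 2 these medians were -0.16 and 0.12, without HFCD 3 they were -0.45 and 0.26, and without both -0.12 and 0.09. Oxidative phosphorylation genes have a median exon length of 983 bases and cytosolic ribosomal protein genes one of 1118, against 3382 over all genes tested. Fatty acid oxidation genes have a median of 2124 bases. The part of length, of the mitochondrial share and of control 2 in the respiratory and ribosomal differences was not tested.

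**Figure D4:**
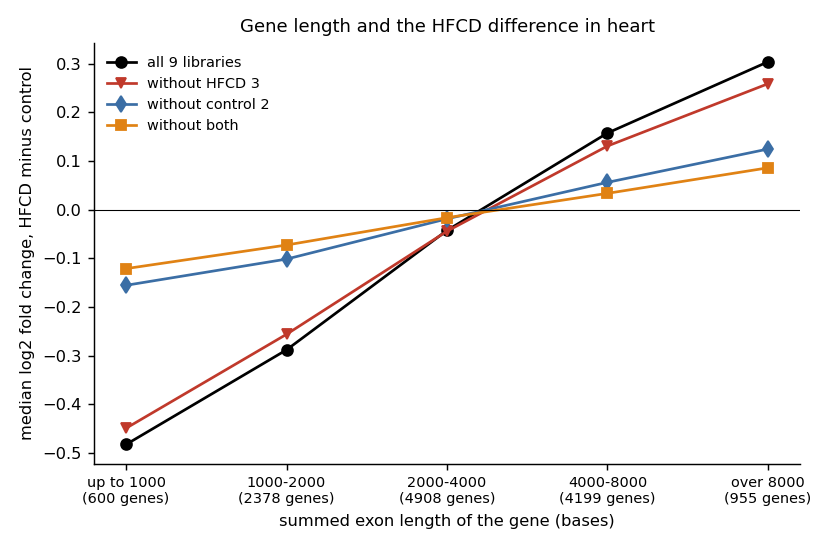
Median log2 fold change (HFCD minus control) of heart genes in 5 classes of summed exon length, with all 9 libraries and with HFCD 3, control 2 or both left out. With all 9 the medians run from -0.48 to 0.30; without both libraries they run from -0.12 to 0.09.

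Single genes show the pattern. Among mitochondrially encoded genes, mt-Nd5, a complex I subunit, was at 15224, 22076, 13354, 24378 and 29263 CPM in the controls and at 45394, 67451, 252581 and 47632 CPM on HFCD. The groups did not overlap, and the log2 fold change was 2.33 ± 0.64, or 1.38 without HFCD 3. For mt-Co1, of complex IV, the ranges were 39083 to 56939 and 67240.2 to 174556 CPM, and for mt-Cytb, of complex III, they were 35315 to 71021 and 67505 to 348569 CPM, the latter with control 2 inside the HFCD range. HFCD 3 was the highest library for all 3. Of the nuclear genes, Ndufa4, a small subunit of complex IV, was at 639, 297, 435, 273 and 351 CPM in the controls and at 239.9, 224, 185 and 266 CPM on HFCD, lower without overlap, at -0.82 ± 0.28 and -0.23 without both libraries.

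The ribosomal protein genes Rps10 and Rplp2 were lower on HFCD without overlap. Rps10 was at 14.3, 9.59, 14.04, 8.05 and 9.13 CPM in the controls and at 4.91, 3.93, 2.22 and 5.17 CPM on HFCD, and the log2 fold change was -1.36 ± 0.29 with all libraries and -0.91 without both (weighted adjusted p = 0.0346, DESeq2 0.00957, edgeR 0.107 without both). Rplp2 was at 12.7 to 27.4 CPM in the controls and 5.32 to 10.9 CPM on HFCD (-1.28 ± 0.29; DESeq2 adjusted p = 0.0167). Both have many pseudogene copies, so their counts are uncertain. Ppargc1a, the coactivator that drives mitochondrial gene expression, was at 79.3, 130.2, 168, 104 and 175 CPM in the controls and at 118, 203, 236 and 204 CPM on HFCD, with a log2 fold change of 0.86 ± 0.25 and no pass (weighted adjusted p = 0.117). The 24 genes of the tricarboxylic acid cycle had 0 higher and 0 lower at an unadjusted p below 0.05.

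**Figure D5:**
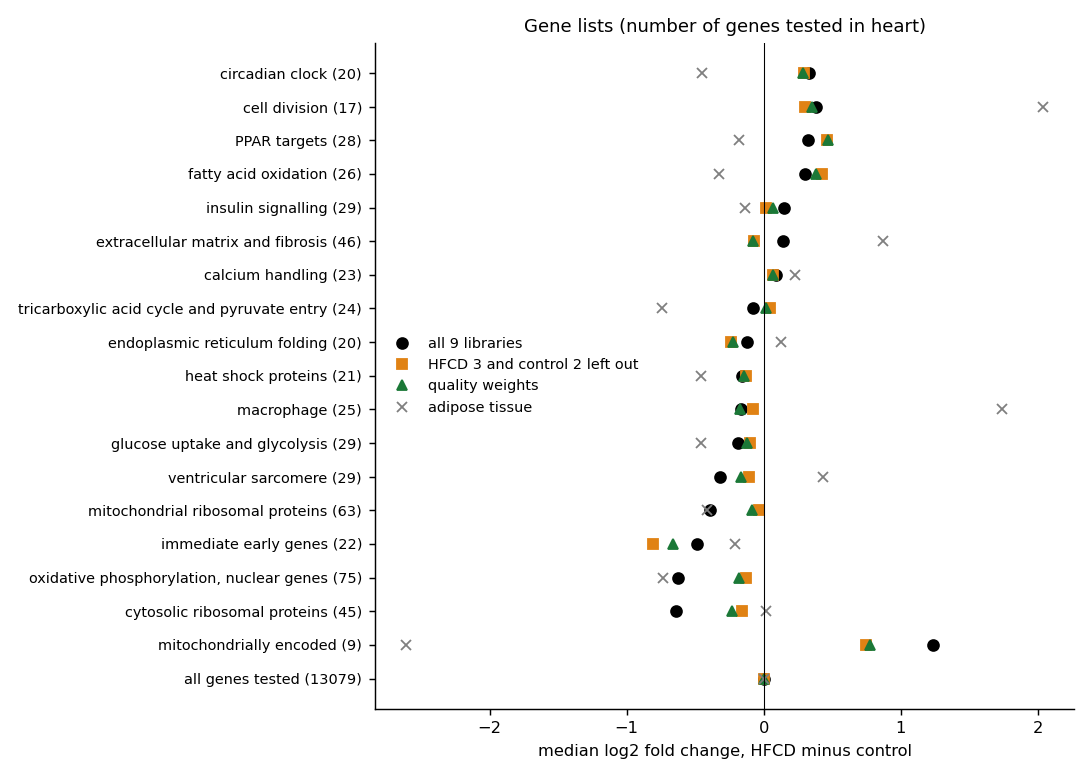
Median log2 fold change (HFCD minus control) of 18 gene lists and of all genes tested, in heart with all 9 libraries, with HFCD 3 and control 2 left out and with library quality weights, and in adipose tissue. Fatty acid oxidation, PPAR target, clock and cell division medians keep their side of 0 in the 3 heart fits, whereas the respiratory and ribosomal medians move toward 0 when the 2 libraries are left out.

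All 6 contractile and strain genes of the panel overlapped between the diets. Of 29 sarcomere genes, 1 was higher (3.45%) and 7 lower (24.1%) at an unadjusted p below 0.05, against 6.85% and 8.30% of all genes. Their median was -0.32, or -0.11 without both libraries that stood apart. Myh7, the slow myosin that strained mouse ventricles re-express, was at 19.6, 76.01, 51.5, 506 and 43.3 CPM in the controls and at 235, 127, 233 and 39.8 CPM on HFCD. Control 5 alone exceeded every HFCD library, and the log2 fold change was -0.34 ± 0.88 with it and 1.70 without it. Ankrd1, a stretch-responsive muscle protein, was at 369.7, 457, 454, 1243 and 212 CPM in the controls and at 739, 568, 1302 and 339.8 CPM on HFCD, again with control 5 high (0.10 ± 0.51). Nppb, the ventricular natriuretic peptide, was at 119.6, 93.9, 107, 93.6 and 16.7 CPM in the controls and at 68.7, 47.3, 49.8 and 42.2 CPM on HFCD, lower on HFCD than in all controls but replicate 6 (-0.98 ± 0.45). Acta1, skeletal actin, was at 41.2 to 198 CPM in the controls and 81.7 to 108 CPM on HFCD, and Myh6 and the calcium pump gene Atp2a2 had log2 fold changes of -0.16 ± 0.18 and -0.03 ± 0.27. None of these 6 genes passed in any named fit.

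Tnnt1, the slow skeletal troponin T, was at 21.01, 9.81, 12.2, 10.8 and 10.5 CPM in the controls and at 7.07, 4.52, 7.78 and 4.88 CPM on HFCD. Every control exceeded every HFCD library (-1.20 ± 0.29; adjusted p = 0.0289 in the weighted fit and 0.0366 in DESeq2). Scn4b, a sodium channel subunit of heart, was at 64.9, 60.2, 70.3, 57.7 and 69.03 CPM in the controls and at 111, 107, 48.6 and 141 CPM on HFCD, so that 3 HFCD libraries stood above all controls and HFCD 3 below them. It differed by 0.74 ± 0.29 on the log2 scale and passed at 0.95 in the weighted fit and at 1.02 without both libraries (adjusted p = 0.0240 and 0.0118). The 29 ion channel and connexin genes had 5 higher (17.2%) and 3 lower (10.3%) at an unadjusted p below 0.05, against 6.85% and 8.30% of all genes. The 23 calcium handling genes had 0 and 0.

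No matrix or macrophage gene of the lists passed the weighted fit. Of 46 matrix genes, 3 were higher and 3 lower at an unadjusted p below 0.05 (6.52% each, against 6.85% and 8.30% of all genes). Postn, a matricellular protein of activated fibroblasts, was at 26.8, 36.6, 36.9, 87.2 and 42.9 CPM in the controls and at 65.9, 66.5, 255 and 43.9 CPM on HFCD. HFCD 3 was far above the rest, and the log2 fold change was 1.10 ± 0.60 with all libraries and 0.23 without it. The collagens Col1a1 and Col3a1 had values of -0.01 ± 0.28 and -0.09 ± 0.18. Timp1, a protease inhibitor, Cd68, a macrophage gene, and Ccl2, a chemokine, were highest in HFCD 3 at 3.81, 17.9 and 2.78 CPM, and their log2 fold changes were 0.17 ± 0.38, 0.44 ± 0.36 and -0.08 ± 0.45. Of 25 macrophage genes, 0 were higher and 4 lower at that level (16%, against 8.30% of all genes). The 9 class II antigen presentation genes had a median of -0.61, or -0.28 without both libraries.

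Several cell division genes were higher in the 4 HFCD libraries. Of 17 tested, 6 were higher (35.3%, against 6.85% of all genes) and 0 lower at an unadjusted p below 0.05. In the same number, 6, the HFCD libraries lay wholly above the controls (5.20% of all genes did). Mki67, the proliferation antigen, was at 2.99, 3.74, 4.09, 4.46 and 4.08 CPM in the controls and at 8.37, 10.8, 20.5 and 7.42 CPM on HFCD. The log2 fold change was 1.63 ± 0.34 and 1.24 without HFCD 3, the highest library, and it passed the weighted fit, DESeq2 and the fit without both libraries (adjusted p = 0.0207, 0.00222 and 0.0471). Ccna2, cyclin A, was at 1.16, 1.26, 0.909, 1.18 and 0.715 CPM in the controls and at 1.91, 2.62, 2.22 and 2.03 CPM on HFCD, and Prc1, of the dividing spindle and not on the list, was at 0.845, 1.33, 1.45, 1.13 and 0.925 CPM in the controls and at 2.17, 2.95, 3.57 and 2.06 CPM on HFCD. The groups did not overlap for either, at 0.86 ± 0.23 and 1.26 ± 0.30 (weighted adjusted p = 0.0488 and 0.0453; DESeq2 0.114 and 0.0351). All 3 genes have low levels, and the left-out HFCD 5 was below all controls for Mki67 (2.23 CPM) and Prc1 (0.299 CPM).

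Genes that define fat cells were lower on HFCD and scarce in both groups. Adipoq, the adipocyte hormone adiponectin, was at 0.457, 0.442, 0.591, 3.01 and 1.22 CPM in the controls and at 0.0722, 0.112, 0.238 and 0.389 CPM on HFCD. Cfd, adipsin, was at 1.02, 1.28, 1.4997, 5.37 and 2.61 CPM in the controls and at 0.108, 0.112, 0.317 and 0.449 CPM on HFCD. Every HFCD library lay below every control for both, at -2.65 ± 0.80 and -3.36 ± 0.69 on the log2 scale, and Cfd passed the weighted fit and DESeq2 (adjusted p = 0.0496 and 0.00100). Plin1 and Cidec, the other 2 defining adipocyte genes, were at 0.398 to 2.96 and 0.457 to 3.59 CPM in the controls and at 0 to 0.555 and 0.0361 to 0.555 CPM on HFCD. Of the 9 adipocyte genes tested, 4 were lower (44.4%, against 8.30% of all genes) and 0 higher at an unadjusted p below 0.05. Fabp4, on the same list and also a gene of endothelial cells, passed the weighted fit as higher (adjusted p = 0.0488). The summed level of the list, most of it from genes that other heart cells also express, was 5348 to 8486 CPM in the controls and 5042 to 7681 CPM on HFCD. The left-out HFCD 5 held 9.31 CPM of Adipoq and 27.9 CPM of Cfd, above all 9.

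Fat synthesis genes were read beside those markers. Scd1, the stearoyl-CoA desaturase, was at 25.4, 23.7, 19.4, 97.8 and 45.4 CPM in the controls and at 12.96, 17.2, 30.2 and 15.3 CPM on HFCD, and Fasn, fatty acid synthase, was at 14.9, 23.9, 17.9, 42.2 and 25.8 CPM in the controls and at 15.95, 15.1, 10.6 and 14.2 CPM on HFCD. Control 5, which held the most Adipoq, was the highest of the 9 for both. Their log2 fold changes were -1.38 ± 0.51 and -0.95 ± 0.30, and Fasn passed the weighted fit (adjusted p = 0.0289). Without control 5 they were -0.41 and -0.49, and that of Adipoq was -1.13 in place of -2.65. The part of fat cells in these 2 differences was not tested. Of 20 fat synthesis genes, 2 were higher (10%) and 3 lower (15%) at an unadjusted p below 0.05, against 6.85% and 8.30% of all genes. Me1 and Scd4, malic enzyme and another desaturase, passed the weighted fit as higher.

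Markers of other tissues were mostly scarce. Of the defining markers, Ucp1 and Elovl3 of brown fat, Myh1, Myh4, Tnnt3 and Mylpf of skeletal muscle, Msln of mesothelium, and Sftpc, Rag1 and Alb of lung, thymus and liver had no row in the heart table. Hba-a1, an erythroid globin, was at 40.5 to 129 CPM in the controls, with control 2 highest, and at 27.8 to 54.8 CPM on HFCD. Acta2, of smooth muscle, was at 440.2, 60.2, 214, 44.5 and 183 CPM in the controls and at 81.6, 81.98, 46.3 and 131 CPM on HFCD, highest in control 2. Il6 and Fgf21, cytokine and hormone genes on the panel of genes to be reported, had no row either.

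The remaining genes of smallest p and of the fit without both libraries had various roles. Mme, neprilysin, a membrane peptidase that cleaves natriuretic peptides, gave the smallest p of all (7.85e-05). It was at 7.32, 9.504, 12.9, 10.3 and 15.5 CPM in the controls and at 16.5, 18.2, 20.9 and 19.3 CPM on HFCD, each HFCD library above each control, at 1.04 ± 0.17 (adjusted p = 0.324 in edgeR, 0.00751 in the weighted fit, 0.000128 in DESeq2 and 0.0378 without both libraries). In the last fit without the set term it gave 0.60 (adjusted p = 0.102). Sdc4, syndecan-4, a cell surface proteoglycan, was at 10.2, 18.3, 14.2, 14.7 and 13.3 CPM in the controls and at 7.25, 6.804, 6.43 and 7.72 CPM on HFCD. The HFCD libraries lay wholly below the controls, at -1.03 ± 0.19 (adjusted p = 0.00295, 0.00304 and 0.00695 in the same 3 fits). Banp, a DNA-binding nuclear protein, was at 14.8, 8.2003, 13.7, 13.3 and 10.2 CPM in the controls and at 5.85, 4.897, 5.55 and 6.401 CPM on HFCD, also lower without overlap (-1.09 ± 0.22; adjusted p = 0.0335 in the weighted fit and 0.00870 in DESeq2).

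Cyp26b1, which breaks down retinoic acid, was at 12.1, 3.87, 6.82, 4.12 and 6.18 CPM in the controls and at 12.4, 11.9, 11.7 and 10.5 CPM on HFCD, with control 2 alone inside the HFCD range. Its log2 fold change was 0.80 ± 0.35 with all libraries and 1.54 without control 2 (edgeR adjusted p = 0.0339), where it was the one gene to pass when a single library was left out. It passed the weighted fit and the fit without both libraries (adjusted p = 0.00192 and 0.00239). Chrna2, a nicotinic receptor subunit, was at 3.34, 0.575, 1.68, 0.681 and 1.64 CPM in the controls and at 4.84, 6.505, 2.54 and 6.25 CPM on HFCD. Its log2 fold change was 1.78 ± 0.57, or 3.02 without control 2. It passed the weighted fit at 3.07 and the fit without both libraries at 3.22 (adjusted p = 0.00192 and 0.000735), and gave 2.45 in the latter without the set term (adjusted p = 0.0271). Slc25a22, a mitochondrial glutamate carrier, was at 38.2, 23.3, 35.1, 20.9 and 35.04 CPM in the controls and at 37.8, 44.2, 22.5 and 41.4 CPM on HFCD, with wide overlap (0.41 ± 0.26). It passed the weighted fit (adjusted p = 0.0188) and the fit without both libraries (0.89, adjusted p = 0.0112) but not then without the set term (0.54, adjusted p = 0.168).

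The same diets were compared in adipose tissue, in 4 HFCD and 3 control libraries, to ask which heart differences were also seen there. These were HFCD replicates 1 to 4 and control replicates 1, 3 and 5. Replicate 1 of each diet was from a mouse of 21 months and the others were from mice of 20 months. The 7 adipose libraries gave 2210 genes higher (14.8% of 14977) and 1886 lower (12.6%) by edgeR. The diet difference itself differed between the tissues in 2170 of 12606 genes (17.2%) by the interaction test. The labels do not say whether hearts and fat came from the same mice. Several genes of fatty acid use lay on opposite sides. Cat had a log2 fold change of 0.96 in heart and -1.26 ± 0.20 in adipose tissue (interaction adjusted p = 0.000681). Pex11a had 0.36 and -1.13 ± 0.21 (adjusted p = 0.00333). Acot2 had 0.74 and -1.17 ± 0.31 (adjusted p = 0.00708).

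Clock genes also differed by tissue. Arntl was lower in heart and had 0.30 ± 0.25 in adipose tissue (interaction adjusted p = 0.00490). For Per1 the values were 0.65 and -0.54 ± 0.17 (adjusted p = 0.00674), and for Ciart 0.84 and -0.92 ± 0.41 (adjusted p = 0.0186). The tissue difference for Sdf2l1 was -2.78 (adjusted p = 0.00248). Other genes had the same sign in both tissues. Hspa1a had -1.33 ± 0.31 in adipose tissue (edgeR adjusted p = 0.0143) and Irs1 -1.60 ± 0.34 (adjusted p = 0.0111), and neither difference between tissues passed (adjusted p = 0.464 and 0.1196). Mki67 was higher in adipose tissue too, at 2.57 ± 0.31 (adjusted p = 0.00143; 0.166 for the difference), whereas Cd68 had 2.93 ± 0.73 there (adjusted p = 0.0200) and 0.44 in heart, a difference that passed (adjusted p = 0.0440).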

How the data were processed

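RNA of mouse hearts and adipose tissue was depleted of ribosomal RNA and sequenced. The deposited heart and adipose counts are whole reads per gene, and per the submitters' processing notes STAR 2.5.3, R 3.5.3, edgeR, limma and build mm10 were used. The counting program and its strand setting are not given in the sources used here. A deposited heart table of log2 values, normalised by the authors, had a shift between library sets removed. Set membership was read from it: the gap between the log2 count (0.5 added) and the table was a constant per library plus a term per gene shared within a set, with a largest residual of 9.77e-09 over 13166 genes.

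Counts were analysed as deposited in R 4.3.3. The main test was edgeR 4.0.16 (quasi-likelihood F-test, robust, TMM scaling, filterByExpr on diet) with diet and library set as terms, Benjamini-Hochberg adjusted over the 13079 of 13238 genes that passed the filter. The fits named beside it were limma 3.58.1 (voom with library quality weights) and DESeq2 1.42.0, both with the same design, and edgeR without HFCD replicate 3 and control replicate 2, which was added after seeing the data. The interaction test was an edgeR fit over 16 libraries of both tissues. Shown CPM values are TMM-scaled over the 14 heart libraries. Gene lengths and promoters came from GENCODE and RefSeq annotation of the same build. Tests were tried on simulated counts.

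Fewer than 10 genes passed, so the named genes are the 10 of smallest p, a panel of 30 (28 with a row) and 42 chosen after their values were seen. The libraries, members and lists were chosen with earlier results of these data known. Third-arm hearts entered alternative fits and the scaling of the shown CPM, from which the overlap of groups was read. They did not enter the main test. Alternatives covered scaling, filters, tools, the set term, age and each library left out. A gene that the rule for named genes covers is not reported here.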

Additional observations from a re-analysis of the deposited data

Results flagged for a closer look

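In 18 of 158 sets of replicate values examined, 1 library lay far from the others of its diet by Dixon's 95% criterion, which chance alone meets in about 1 set in 20. HFCD replicate 3 accounted for 7 of these. Its Postn was at 255 CPM (43.9 to 66.5 in the other HFCD libraries), Timp1 at 3.81 (1.38 to 1.59), Cd68 at 17.9 (6.24 to 6.84), Nr1d2 at 147 (107 to 112) and Manf at 27.5 CPM (17.9 to 18.8). Its mt-Cytb was at 348569 CPM (67505 to 88515) and its mt-Nd5 at 252581 CPM (45394 to 67451).

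Control replicate 2 stood apart for Cpt1b, lowest at 7.07 CPM (11.4 to 12.9 in the other controls), and for Hsd17b11 at 38.2 (20.2 to 25.3), Fabp4 at 804 (293 to 408) and Tnnt1 at 21.0 CPM (9.81 to 12.2), where it was highest. Control replicate 5 was highest for Myh7 at 506 CPM (19.6 to 76.0), Ankrd1 at 1243 (212 to 457), Postn at 87.2 (26.8 to 42.9) and Timp1 at 2.49 CPM (1.37 to 1.64). The other 3 were Nppb in control 6 at 16.7 CPM (93.6 to 119.6), Dnaja1 in control 4 at 22.6 CPM (16.02 to 17.7) and Hspa1a in HFCD 4 at 0.837 CPM (0.433 to 0.486).

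For 31 named genes the HFCD difference itself differed between heart and adipose tissue by the edgeR interaction test. Over all genes tested, 2170 of 12606 did (17.2%). Of the named genes, 42 were chosen after their values were seen, so the 31 cannot be set against that share. None of the heart differences passed the equal-weight fit. The heart minus adipose difference in log2 fold change was above 0 for fatty acid and mitochondrial genes: Cat 2.21, Acot2 1.88, Pex11a 1.48, Acsl1 1.34, Hsdl2 1.16, Cpt2 1.11, Crat 1.11, Etfdh 0.92, Pdk4 2.03, Ppargc1a 2.25 and Slc25a22 1.17. It was 2.42 for Fasn, which was lower by less in heart than in adipose tissue (-0.95 and -3.37). Among clock genes it was 1.83 for Nr1d1, 1.74 for Ciart, 1.18 for Per1, 1.09 for Per3, 1.08 for Per2 and 0.89 for Nr1d2, and -1.71 for Arntl. The mitochondrially encoded genes had the widest differences, 5.06 for mt-Nd5, 4.52 for mt-Cytb and 3.61 for mt-Co1. It was below 0 for Sdf2l1 (-2.78), Cd68 (-2.52), Rps10 (-2.15), Fbp2 (-1.89), Rplp2 (-1.72), Ccna2 (-1.66), Col3a1 (-1.25), Dnajb1 (-0.99) and Slc2a1 (-0.83).

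Outside the comparison, the left-out HFCD 5 held 850.4 CPM of Bmp10, against 0.0909 to 0.524 CPM in the 5 controls.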

How the results depend on the processing

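The equal-weight fit called 0 genes, with 1981 at an unadjusted p below 0.05, or 639 with age as a term. DESeq2 called 30 higher and 19 lower, the quality weights 109 and 53, edgeR without HFCD 3 and control 2 26 and 4, and the same without the set term 19 and 10. With each library left out in turn the higher calls ran from 0 to 1, the 1 without control 2, and the other settings of that comparison gave 0. The tissue interaction gave 2170 genes, 2223 to 2705 with other scaling, no set term or HFCD 5, and 1421 (without adipose control 3) to 2553 with each library left out. Of 1971 recomputed fold changes of named genes, 58 turned direction and 1813 kept direction and side. Of 1224 list medians, 87 moved by at least 1 SD over the libraries.

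Without the set term, fold changes turned to -0.02 for Angptl4, 0.19 for Myh7, 0.08 for Col1a1 and 0.04 for Col3a1. With HFCD 5 included and no set term they were 0.18 for Myh7, 0.22 for Col1a1, 0.12 for Col3a1, 1.52 for Ccl2, 0.81 for Adipoq, 1.27 for Cfd, 0.12 for Npas2 and -0.04 for Dbp. With all 14 hearts they were 0.06 for Col1a1, 0.34 for Ccl2 and -0.11 for Dbp, and on the deposited log2 values 0.60 for Myh7, 0.05 for Ccl2 and -0.00 for Dbp. Quality weights gave -0.64 for Ankrd1, -0.02 for Postn and -0.41 for Timp1, and leaving out both libraries -0.63, -0.08 and -0.39. Leaving out both and the set term gave 0.17 for Acta1, -0.10 for Ankrd1 and -0.24 for Timp1. Limma voom gave 0.53 for Myh7 and 0.03 for Atp2a2, and age as a term -0.02 for Ankrd1 and -0.04 for Timp1. With each library left out in turn, values ran from -0.36 to 0.79 for Angptl4, -0.87 to 1.70 for Myh7, -0.29 to 0.21 for Atp2a2, -0.33 to 0.81 for Ankrd1, -0.34 to 0.13 for Col1a1, -0.20 to 0.00 for Col3a1, -0.25 to 0.47 for Timp1, -0.43 to 0.17 for Ccl2, -0.05 to 0.59 for Cd68, -0.12 to 0.39 for Dbp, -0.08 to 0.82 for Fabp4 and -0.13 to 0.40 for Nr1d1. The cause of these turns was not tested.

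No paired analysis was possible because the labels give no replicate numbers that tie libraries of different diets. Genes under about 1 CPM, such as Adipoq and Cfd on HFCD, rest on few counts a library.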

Other observations

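Several lists not described above had values of the same kind. Of 22 immediate early genes, which cells switch on within minutes of a stimulus, 0 were higher and 1 lower (4.55%) at an unadjusted p below 0.05. All genes gave 6.85% and 8.30%. The median log2 fold change of the list was nonetheless -0.49, or -0.81 without HFCD 3 and control 2. Of 25 endothelial genes, Car4, Cd36 and Fabp4 passed the weighted fit as higher (0.833% of all genes did), with a list median of 0.03. At an unadjusted p below 0.05, 3 were higher and 3 lower (12% each). Of 16 smooth muscle and pericyte genes, Lmod1, Myh11 and Mylk passed the weighted fit as higher, with a list median of 0.13. Only 1 of the 16 was higher (6.25%) and 0 lower at an unadjusted p below 0.05, and 10 had positive log2 fold changes.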
